A study of Sus scrofa with 10 samples.

Results

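The cytochrome P450 enzymes and the steroid-converting enzymes of the pig hypothalamus were taken by gene name. The rows were the CYP genes other than CYP51A1, the P450 reductase POR, the hydroxysteroid dehydrogenases (HSD and HSDL), the AKR1 aldo-keto reductases, the steroid 5-alpha-reductases (SRD5A), the START-domain lipid carriers (STAR and STARD) and the cytosolic sulfotransferases (SULT). With the authors' status flag required to be OK in both groups, 86 rows with 82 gene names were found among 25009 rows, 40 of them P450 genes. The animals were backcross pigs (Iberian x Landrace), and RNA came from the hypothalamus, the brain region that governs appetite, growth and pituitary hormones. The High group held 5 pigs of high growth and fatness, and the Low group held 5 pigs of low growth and fatness. Age, sex and treatment are not given in the sources used here. The authors deposited 1 FPKM value per gene and group (fragments scaled by transcript length and by the number of mapped fragments), with a lower and an upper bound that stand in parentheses below. Values per animal were not analysed here, so there was no replicate check and no test between the groups, and depth is unknown.

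P450 enzymes carry heme and insert an oxygen atom into their substrates, with electrons delivered by POR in the endoplasmic reticulum and by ferredoxin in mitochondria. The family includes the enzymes that make steroid hormones, those that clear cholesterol, retinoic acid and vitamin D, and those that oxidise drugs and fatty acids. Hydroxysteroid dehydrogenases, 5-alpha-reductases and aldo-keto reductases then switch steroids between active and inactive forms, and sulfotransferases make them water-soluble. In the brain these enzymes are known for neurosteroid formation, for local activation of glucocorticoids and for the removal of cholesterol across the blood-brain barrier. The roles given below are known mainly from human and rodent orthologues.

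As a check of the tissue, 8 of 10 hypothalamic genes averaged 1 FPKM or more, led by vasopressin, AVP (472 against 354 FPKM in High and Low pigs). Their summed level was 1065 FPKM in High pigs and 787 FPKM in Low pigs, and 7 of 8 were higher in High pigs. The 1 that was lower was POMC (84.0 against 110 FPKM in High and Low pigs), which is also counted among the anterior pituitary markers below. Markers of fibroblasts, mural cells and meninges summed to 111 FPKM in High pigs and 275 FPKM in Low pigs, with 12 of 12 lower in High pigs (11 of 12 after scaling by the median ratio, where PDGFRB turned). In High and Low pigs, oligodendrocyte markers summed to 2794 and 4341 FPKM (7 of 7 lower in High pigs) and choroid plexus markers to 325 and 500 FPKM (5 of 6). Anterior pituitary markers summed to 428 FPKM in High pigs and 791 FPKM in Low pigs (6 of 6 lower in High pigs, or 5 of 6 after either scaling described below, where CHGA turned). Blood markers summed to 161 FPKM in High pigs and 393 FPKM in Low pigs (4 of 4 lower in High pigs). The astrocyte gene GFAP did not have status OK in both groups and was listed at 0 in both. Other astrocyte markers summed to 2345 FPKM in High pigs and 2856 FPKM in Low pigs (5 of 6 lower in High pigs, or 3 of 6 after either scaling). Endothelial markers summed to 33.3 and 41.3 FPKM in High and Low pigs (5 of 5 lower in High pigs). Neuronal markers summed to 862 and 895 FPKM (3 of 5 lower in High pigs, 2 of 5 after scaling by the median ratio and 0 of 5 after quantile normalization). Over all 15281 rows that averaged 1 FPKM or more, 67.7% had the lower value in High pigs, and the median difference of log2(FPKM + 1), High minus Low, was -0.10. Every difference below is on that scale, which understates the change of low genes, and every ratio is of the FPKM themselves.

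The members ranged from rows listed at 0 to a mean of 58.4 FPKM for SULT4A1. Of the 86 rows, 21 had a mean over both groups of 10 FPKM or more, 24 of 1 to 10 FPKM, 23 of 0.1 to 1 FPKM and 18 of under 0.1 FPKM. The share at 10 FPKM or more, 24.4%, was close to the 24.9% of all 24951 rows with status OK in both groups, while 26.7% of members against 12.9% of all rows fell between 0.1 and 1 FPKM. P450 rows were the lower part of the set. Of 40 P450 rows 17 reached 1 FPKM and 4 reached 10 FPKM, whereas 28 of 46 other rows reached 1 FPKM and 17 reached 10 FPKM. The median of the rows' mean levels was 0.577 FPKM for P450 genes, 3.60 FPKM for the other members and 2.63 FPKM for all rows.

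**Figure D1:**
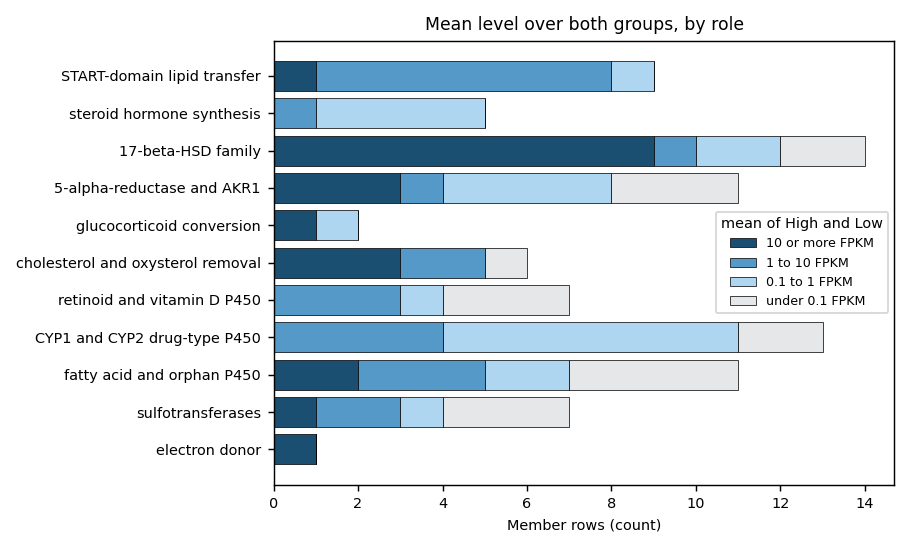
Number of member rows (x axis, count) in each role (y axis), coloured by the mean of the FPKM of both groups. The 17-beta-hydroxysteroid dehydrogenase family holds 9 of the 21 rows at 10 FPKM or more, and the drug-type P450 genes hold 0.

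By the mean of both groups, SULT4A1 had the highest level of the set, followed by HSD17B12, AKR1B1, AKR1A1, STARD7 and CYP46A1. In Low pigs alone HSD17B12 was first (61.4 FPKM) and SULT4A1 next to it (59.3 FPKM). The first 5 rows made up 36.2% of the summed FPKM of all members in High pigs and 35.8% in Low pigs, and the same 5 rows led in both. Of the 10 highest rows 9 were shared by both groups, and of the 20 highest 19. In the order of the 45 rows that averaged 1 FPKM or more, 0 of 44 neighbouring pairs had bounds apart within High pigs and 0 of 44 within Low pigs, so the place of a gene next to its neighbours is not resolved by the deposited bounds.

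**Figure D2:**
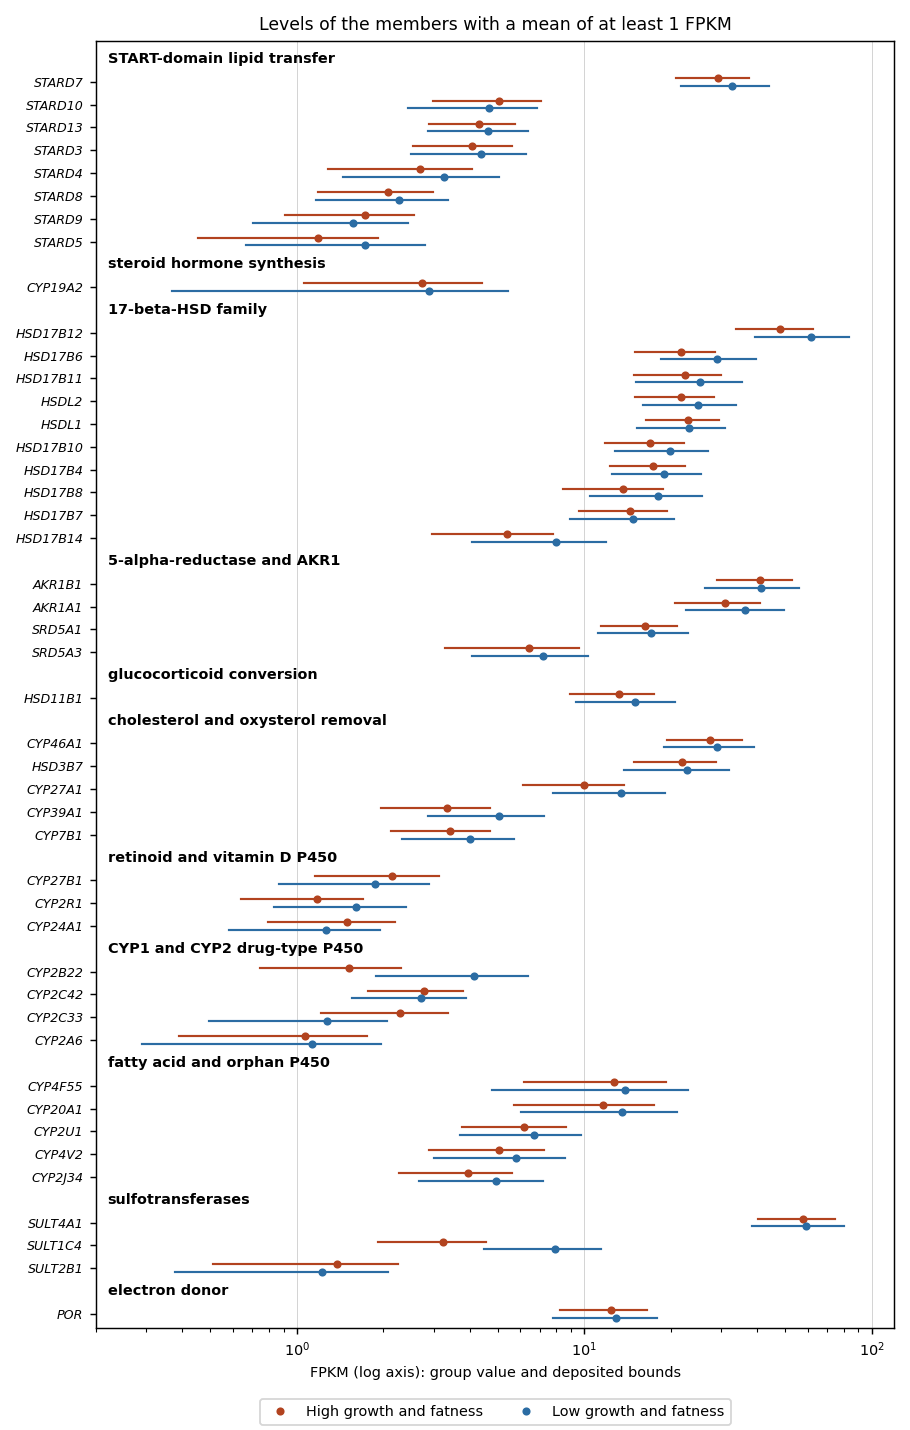
FPKM (x axis, log) of the 45 member rows that averaged 1 FPKM or more, by role, with the High group above the Low group in each row. Points are group values and lines run between the deposited bounds, which overlap between the groups for all 45 rows, most narrowly for SULT1C4.

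Between the groups, the bounds were apart for 0 of the 45 members that averaged 1 FPKM or more, against a background of 0.458% of all 15281 rows (0.0262% higher in High pigs and 0.432% lower). An FPKM ratio of at least 1.5 was reached by 4 members, beside 9.96% of all rows. CYP2C33 was higher in High pigs (1 of 45, background 3.25%), and CYP2B22, SULT1C4 and CYP39A1 were lower in High pigs (3 of 45, background 6.71%). These are 2.22% and 6.67% of the members. A ratio of 2 was passed by CYP2B22 and SULT1C4 (2 of 45, background 3.76%). In all, 38 of 45 members had the lower value in High pigs, 84.4% against a background of 67.7%. Once both groups were scaled so that the median ratio over all rows was 1, 26 of 45 members had the lower value in High pigs, against 49.9% of all rows, and after quantile normalization 29 of 45 did, against 50.6%. The 12 members that turned under the first scaling were AKR1B1, CYP19A2, CYP2A6, CYP46A1, HSD17B7, HSD3B7, HSDL1, POR, SRD5A1, STARD13, STARD3 and SULT4A1. The background of ratios past 1.5 also evened out, to 4.81% higher and 4.65% lower in High pigs by the median ratio and to 4.27% higher and 4.89% lower by quantiles.

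The median difference of the 45 members was -0.12, beside -0.10 over all rows (-0.01 and -0.03 for the members after scaling by the median ratio and by quantiles), with the quartiles of the members at -0.22 and -0.04. For 42 of 45 members the difference was smaller than 0.5 in either direction (93.3%, against 90.9% of all rows), and for 17 it was smaller than 0.1 (37.8%, against 30.8%). These 17 include SULT4A1, AKR1B1, CYP46A1, SRD5A1 and POR. The bounds are wide, however. Their width to either side had a median of 38.3% of the FPKM in High pigs and 43.1% in Low pigs over the 45 members. Dividing the lower bound of one group by the upper bound of the other gives the range of ratios that the bounds allow. For 43 of 45 members that range held a ratio of 1.5 in both directions, and for 23 it held a ratio of 2 in both, so near-equal values do not show that the groups are alike.

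**Figure D3:**
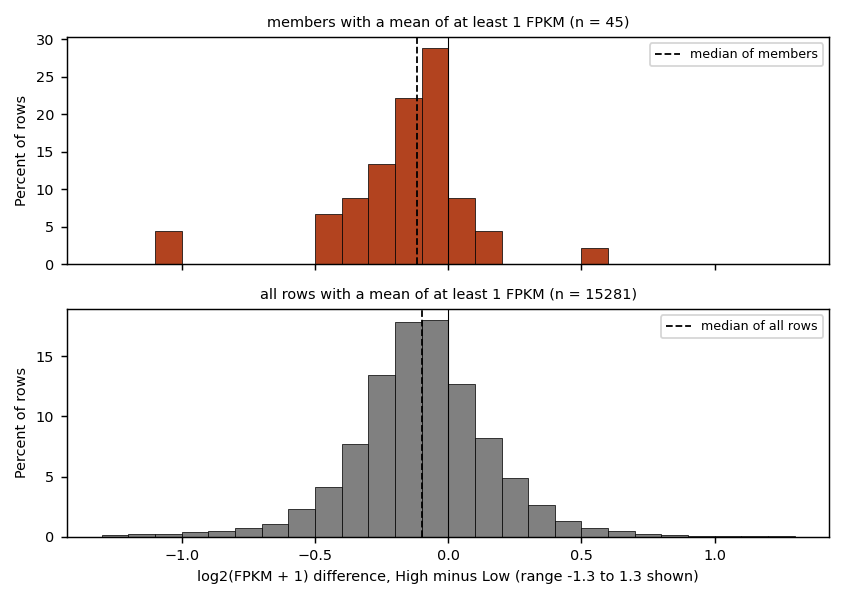
Distribution of the difference of log2(FPKM + 1), High minus Low (x axis), as percent of rows (y axis), for the 45 members (top) and all 15281 rows that averaged 1 FPKM or more (bottom). Dashed lines mark the medians, -0.12 and -0.10, and the members farthest out are SULT1C4 and CYP2B22 on the left and CYP2C33 on the right.

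**Figure D4:**
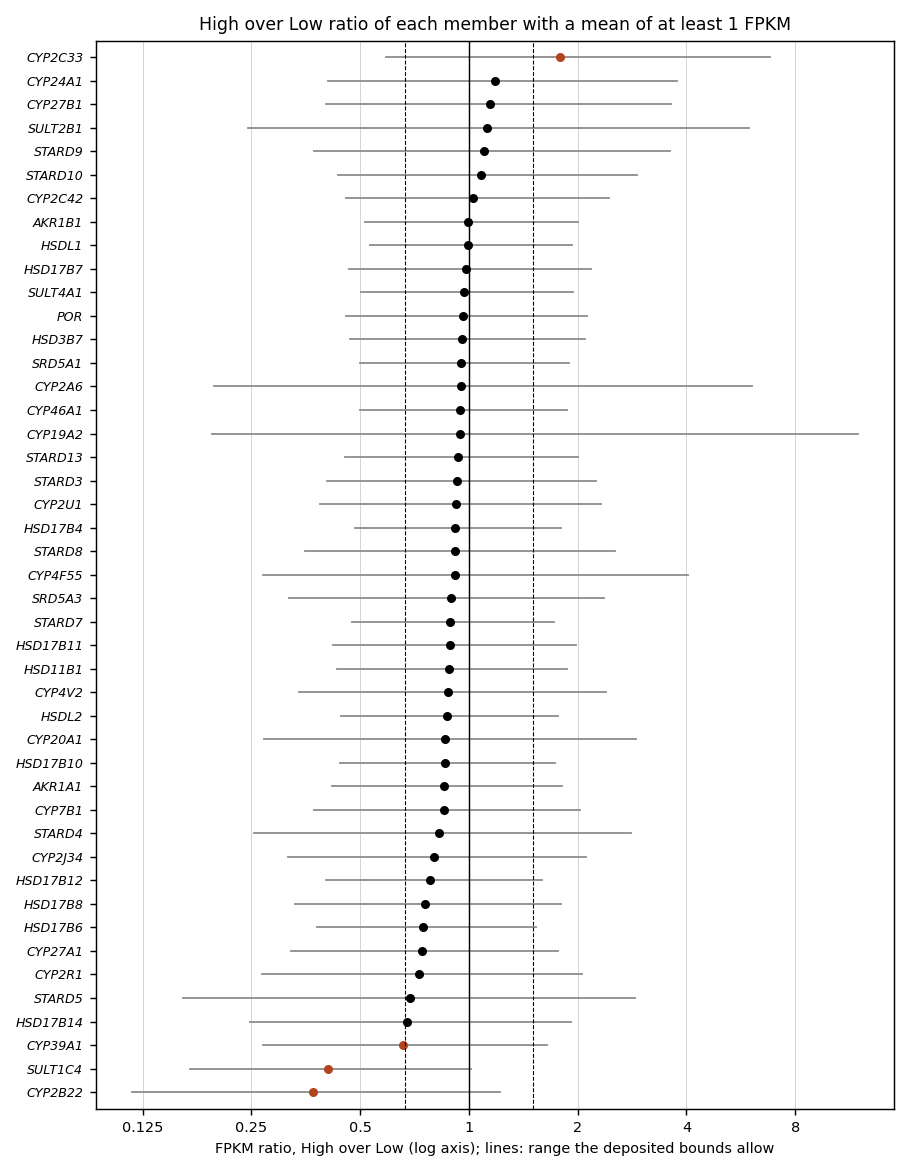
FPKM ratio of High over Low (x axis, log) for the 45 members that averaged 1 FPKM or more, sorted from high to low, with lines for the range of ratios that the deposited bounds allow. Dashed lines mark a ratio of 1.5 in each direction and coloured points the 4 members past it. The line of every member crosses a ratio of 1, and that of SULT1C4 ends at 1.02.

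SULT1C4, a sulfotransferase of the phenol type, was lower in High pigs and had the largest log2 difference among the 45. It was at 3.23 FPKM (1.92 to 4.55) in High and 7.94 FPKM (4.48 to 11.4) in Low pigs, a difference of -1.08 and a Low-to-High ratio of 2.45. SULT1C genes are similar copies, so the value is uncertain. Its bounds met only at their ends, since the upper bound in High pigs, 4.55 FPKM, lay just above the lower bound in Low pigs, 4.48 FPKM. CYP2B22, a pig gene of the drug-oxidising CYP2B family, was at 1.52 FPKM (0.743 to 2.31) in High and 4.13 FPKM (1.89 to 6.36) in Low pigs, a difference of -1.02 and a Low-to-High ratio of 2.71. Fibroblast and meningeal markers (12 of 12 lower in High pigs, 111 against 275 FPKM), choroid plexus markers (5 of 6, 325 against 500 FPKM), oligodendrocyte markers (7 of 7) and blood markers (4 of 4) ran in the same direction, with 0 of the matched markers of these lists at 0 in both groups. So did anterior pituitary markers (6 of 6, 428 against 791 FPKM), endothelial markers (5 of 5) and astrocyte markers (5 of 6). Of the neuronal markers 3 of 5 were lower in High pigs, and of the hypothalamic genes 1 of 8. The background share of lower rows was 67.7%. The part of any of these cell types in the values of SULT1C4 and CYP2B22 was not tested. In RNA from whole tissue, fewer cells of a type and less RNA per cell cannot be told apart.

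CYP2C33, a pig gene of the drug-oxidising CYP2C family, was the member farthest in the other direction, at 2.28 FPKM (1.21 to 3.35) in High and 1.28 FPKM (0.493 to 2.06) in Low pigs. Its difference was 0.53, its High-to-Low ratio 1.79, and its bounds allowed a ratio of 0.589 to 6.79. CYP39A1, which hydroxylates the brain oxysterol 24-hydroxycholesterol, was at 3.33 FPKM (1.96 to 4.71) in High and 5.06 FPKM (2.86 to 7.27) in Low pigs, a difference of -0.48. The Low-to-High ratio of CYP39A1, 1.52, was just past the threshold, and after scaling by the median ratio or quantile normalization it was no longer past it, while CYP2B22, SULT1C4 and CYP2C33 were. HSD17B14 (Low-to-High ratio 1.49) and STARD5 (Low-to-High ratio 1.46) lay just short of the threshold, both lower in High pigs.

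On build Sscrofa10.2, SULT1C4 (ENSSSCG00000025836) lies on chromosome 3 (49934276 to 49946446), CYP2B22 (ENSSSCG00000003006) on chromosome 6 (44929853 to 44978800), CYP2C33 (ENSSSCG00000010546) on chromosome 14 (120679543 to 120708029) and CYP39A1 (ENSSSCG00000001718) on chromosome 7 (47585614 to 47666874). The span of CYP2B22 is shared with an unnamed row that was at 0.0969 FPKM in High pigs and 0.0875 FPKM in Low pigs.

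The carriers that bring cholesterol and other lipids to membranes come first in the pathway. STAR, which feeds cholesterol to the first enzyme of steroid synthesis in mitochondria, was low, at 0.719 FPKM (0.317 to 1.12) in High and 0.718 FPKM (0.274 to 1.16) in Low pigs. The other 8 START-domain rows all reached 1 FPKM, 2 higher and 6 lower in High pigs (4 lower after scaling by the median ratio, 6 after quantile normalization), with a median difference of -0.09 (1.39e-05 and -0.03 after these scalings). The background share of rows lower in High pigs was 67.7% as deposited, and 49.9% and 50.6% after these scalings. STARD7, a carrier of phosphatidylcholine to mitochondria, led the START-domain rows at 29.1 FPKM (20.9 to 37.4) in High and 32.8 FPKM (21.7 to 43.9) in Low pigs. STARD10, a phospholipid carrier, was at 5.04 FPKM (2.99 to 7.10) in High and 4.66 FPKM (2.44 to 6.87) in Low pigs, and STARD13, which joins a START domain to a GTPase-activating domain, was at 4.31 FPKM (2.89 to 5.73) in High and 4.63 FPKM (2.87 to 6.40) in Low pigs. The sterol carriers STARD3 of late endosomes, STARD4 and STARD5 had lower levels than STARD7, at 4.06 against 4.38 FPKM, 2.68 against 3.25 FPKM and 1.19 against 1.73 FPKM in High and Low pigs. STARD8, of the same type as STARD13, was at 2.08 against 2.27 FPKM, and the kinesin STARD9 at 1.73 against 1.57 FPKM.

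Enzymes of steroid hormone synthesis from cholesterol that had a row by name were low. CYP11B1, CYP11B2, HSD3B1 and CYP19A1 had no row by name, so their levels are not known here. CYP11A1, which cleaves the cholesterol side chain, was at 0.311 FPKM (0.0364 to 0.585) in High and 0.311 FPKM (0.0238 to 0.598) in Low pigs. The row named HSD3B, the 3-beta-hydroxysteroid dehydrogenase of progesterone synthesis, was at 0.620 FPKM (0.233 to 1.01) in High and 0.377 FPKM (0.0837 to 0.671) in Low pigs. CYP17A1, the enzyme on the way to androgens, was at 0.108 FPKM (0 to 0.217) in High and 0.144 FPKM (0.00830 to 0.279) in Low pigs. None of these rows reached a mean of 1 FPKM, and the bounds of each overlapped between the groups. CYP21A2, the 21-hydroxylase of the adrenal cortex, was at 0.0869 FPKM (0 to 0.354) in High and 0.133 FPKM (0 to 0.553) in Low pigs, and its span is shared with TNXB, which had a higher level (1.28 FPKM in High pigs and 1.61 FPKM in Low pigs). The 5 matched markers of adrenal-type steroid cells (STAR, CYP11A1, CYP17A1, MC2R and NR5A1) summed to 2.13 FPKM in High pigs and 1.97 FPKM in Low pigs.

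CYP19A2, a pig gene of aromatase, which turns androgens into oestrogens, had the highest value of this step in both groups. In High pigs its lower bound, 1.06 FPKM, was just above the highest upper bound of the others, 1.01 FPKM for HSD3B. In Low pigs its lower bound, 0.369 FPKM, was below the upper bounds of HSD3B (0.671), CYP11A1 (0.598) and CYP21A2 (0.553), so its place there is not resolved. Its level was 2.73 FPKM (1.06 to 4.41) in High and 2.89 FPKM (0.369 to 5.42) in Low pigs, the only one of 5 rows above 1 FPKM. The bounds in Low pigs were wide and allowed a ratio of 0.195 to 11.9. Pigs have several similar aromatase genes, so the authors' counting could have split reads between them, and the value is uncertain.

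The 17-beta-hydroxysteroid dehydrogenase family, which interconverts 17-keto and 17-hydroxy steroids but also handles fatty acids and sterols, had 9 of the 21 members at 10 FPKM or more. Of 14 rows (12 HSD17B and the related HSDL1 and HSDL2), 10 averaged 1 FPKM or more, and 10 of 10 were lower in High pigs, with a median difference of -0.20. After scaling by the median ratio 8 of 10 were lower (HSD17B7 and HSDL1 turned), with a median of -0.09, and after quantile normalization 7 of 10 (HSD17B4 too), with a median of -0.06. Among all rows that averaged 1 FPKM or more, 67.7% were lower in High pigs as deposited, with a median difference of -0.10. That share was 49.9% after scaling by the median ratio and 50.6% after quantile normalization. HSD17B12, a reductase of fatty acid elongation, was at 48.0 FPKM (33.6 to 62.4) in High and 61.4 FPKM (39.3 to 83.5) in Low pigs. HSD17B6, an oxidoreductase of androgen metabolites and retinol, was at 21.7 FPKM (15 to 28.5) in High and 29.1 FPKM (18.5 to 39.6) in Low pigs. HSD17B11, an enzyme of lipid droplets, was at 22.4 FPKM (14.9 to 29.9) in High and 25.3 FPKM (15.2 to 35.4) in Low pigs. The bounds of all 10 rows overlapped between the groups.

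HSD17B10 and HSD17B4, which take part in mitochondrial and peroxisomal beta-oxidation, were at 17 against 19.9 FPKM and 17.4 against 19.0 FPKM in High and Low pigs. HSD17B7, an enzyme of cholesterol synthesis, was at 14.5 against 14.7 FPKM and HSD17B8, of mitochondrial fatty acid synthesis, at 13.6 against 18.0 FPKM. HSDL1 and HSDL2 were at 22.9 against 23.1 FPKM and 21.7 against 24.9 FPKM. These 6 were all above 10 FPKM in both groups. HSD17B14 was the lowest of the 10, at 5.39 FPKM (2.96 to 7.81) in High and 8.0 FPKM (4.07 to 11.9) in Low pigs, a difference of -0.49. The enzymes best known for making and clearing sex hormones were low: HSD17B1, which makes oestradiol, was at 0.890 against 0.887 FPKM, HSD17B3, which makes testosterone in the testis, at 0.0490 against 0.0904 FPKM and HSD17B2, which inactivates both, at 0.0168 against 0.0717 FPKM. HSD17B13, a lipid droplet enzyme of liver, was at 1.05 FPKM (0.489 to 1.62) in High and 0.656 FPKM (0.22 to 1.09) in Low pigs.

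Reduction of the steroid ring was represented mainly by SRD5A1, the 5-alpha-reductase of neurosteroid synthesis, at 16.3 FPKM (11.4 to 21.1) in High and 17.1 FPKM (11.2 to 22.9) in Low pigs. SRD5A2, the form of male reproductive tissue, was at 0.943 FPKM (0.406 to 1.48) in High and 0.817 FPKM (0.292 to 1.34) in Low pigs. SRD5A3, which makes dolichol for protein glycosylation, was at 6.43 FPKM (3.27 to 9.59) in High and 7.19 FPKM (4.06 to 10.3) in Low pigs. SRD5A1 thus had the highest level of the 3 in both groups, with its lower bounds above the upper bounds of SRD5A3 and SRD5A2 in each.

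Among the aldo-keto reductases, AKR1B1, aldose reductase, and AKR1A1, aldehyde reductase, stood far above the others. AKR1B1 was at 40.9 FPKM (28.9 to 52.8) in High and 41.2 FPKM (26.4 to 56.0) in Low pigs, and AKR1A1 at 30.9 FPKM (20.8 to 41.0) in High and 36.1 FPKM (22.6 to 49.7) in Low pigs. The steroid-reducing AKR1C rows were close to 0. AKR1C1 was at 0.0848 FPKM (0 to 0.188) in High and 0.0846 FPKM (0 to 0.197) in Low pigs, and the 2 rows named AKR1C3 were at 0.0287 against 0.0137 FPKM and 0.0496 against 0.0130 FPKM. AKR1D1, the 5-beta-reductase of bile acid and steroid metabolism, was at 1.03 FPKM (0.279 to 1.77) in High and 0.954 FPKM (0.201 to 1.71) in Low pigs, just under a mean of 1 FPKM. The 2 rows named AKR1E2 were at 0.596 against 0.609 FPKM and 0.592 against 0.580 FPKM, and since AKR1C and AKR1E genes are similar copies, their values are uncertain. AKR1C4 had no row by name.

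Of the enzymes of glucocorticoid conversion, the activating one had the higher level. HSD11B1, which regenerates active cortisol, was at 13.2 FPKM (8.90 to 17.5) in High and 15 FPKM (9.37 to 20.6) in Low pigs, a difference of -0.17, and its bounds allowed a ratio of 0.431 to 1.87. HSD11B2, which inactivates cortisol, was at 0.102 FPKM (0 to 0.996) in High and 0.115 FPKM (0 to 1.22) in Low pigs. The upper bounds of HSD11B2 were below the lower bounds of HSD11B1 in both groups. HSD11B2 shares its span with ATP6V0D1, a subunit of the proton pump at 53.1 FPKM in High pigs and 45.5 FPKM in Low pigs.

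Of the enzymes that remove cholesterol, 3 had a mean over both groups of 10 FPKM or more. CYP46A1, the neuronal cholesterol 24-hydroxylase whose product leaves the brain, was the highest P450 row at 27.4 FPKM (19.4 to 35.4) in High and 28.9 FPKM (19.0 to 38.9) in Low pigs, a difference of -0.08. Its bounds allowed a ratio of 0.498 to 1.87. HSD3B7, which acts on 7-hydroxylated sterols on the way to bile acids, was at 21.9 FPKM (14.9 to 28.8) in High and 22.8 FPKM (13.8 to 31.9) in Low pigs, and its span is shared with another row of the table. CYP27A1, the sterol 27-hydroxylase of mitochondria, was at 9.95 FPKM (6.14 to 13.8) in High and 13.4 FPKM (7.79 to 19.1) in Low pigs, a difference of -0.40.

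CYP7B1, the oxysterol 7-alpha-hydroxylase, was at 3.41 FPKM (2.13 to 4.70) in High and 4.01 FPKM (2.32 to 5.70) in Low pigs. CYP7A1, the rate-limiting enzyme of bile acid synthesis in liver, was at 0.0129 FPKM (0 to 0.0378) in High and 0.0224 FPKM (0 to 0.0561) in Low pigs. The 5 rows of this role that averaged 1 FPKM or more were all lower in High pigs, with a median difference of -0.18, and 3 of 5 were after either scaling, where CYP46A1 and HSD3B7 turned and the median was -0.09 by the median ratio and -0.13 by quantiles. The background share of rows lower in High pigs was 67.7% as deposited, 49.9% by the median ratio and 50.6% by quantiles. A further CYP27A1 row, whose Low value carried the status FAIL, was left out.

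P450 enzymes of retinoic acid and vitamin D were low. CYP27B1, which activates vitamin D, was at 2.15 FPKM (1.16 to 3.14) in High and 1.87 FPKM (0.866 to 2.88) in Low pigs. CYP24A1, which degrades it, was at 1.49 FPKM (0.794 to 2.19) in High and 1.26 FPKM (0.582 to 1.95) in Low pigs. CYP2R1, the vitamin D 25-hydroxylase, was at 1.17 FPKM (0.641 to 1.71) in High and 1.61 FPKM (0.831 to 2.39) in Low pigs. CYP27B1 and CYP24A1 were 2 of the 7 members with a higher value in High pigs, with differences of 0.13 and 0.14, while CYP2R1 had -0.27.

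The CYP26 enzymes, which clear retinoic acid, stayed below 1 FPKM. CYP26B1 was at 0.302 FPKM (0.0887 to 0.515) in High and 0.699 FPKM (0.154 to 1.24) in Low pigs, a Low-to-High ratio of 2.32. Of the 2 rows named CYP26A1, that on chromosome 14 was at 0.0112 FPKM (0 to 0.0404) in High and 0.0431 FPKM (0 to 0.121) in Low pigs, and that on an unplaced scaffold was at 0.00573 FPKM (0 to 0.0250) in High and 0.0292 FPKM (0 to 0.0879) in Low pigs. CYP26C1 was listed at 0 in both groups. Of 15 other retinoid and vitamin D genes listed, 11 averaged 1 FPKM or more, and of these 0 were higher (background 3.25%) and 4 lower (background 6.71%) in High pigs by a ratio of 1.5. The bounds were apart for 1 of the 11 (background 0.458%), the retinoic acid carrier CRABP2, at 2.12 FPKM (0.647 to 3.59) in High and 22.5 FPKM (10.6 to 34.5) in Low pigs. Fibroblast and meningeal markers were lower in High pigs as well (12 of 12, 111 against 275 FPKM), as were most markers of several other cell types given above. The part of these cell types in the values was not tested.

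Drug-type P450 genes of the CYP1 and CYP2 families held 13 rows, of which 4 reached 1 FPKM. Besides CYP2B22 and CYP2C33 these were CYP2C42, at 2.78 FPKM (1.76 to 3.80) in High and 2.71 FPKM (1.56 to 3.87) in Low pigs, and a CYP2A6 row at 1.07 FPKM (0.389 to 1.75) in High and 1.13 FPKM (0.290 to 1.97) in Low pigs. A second CYP2A6 row, on an unplaced scaffold, was at 0.966 FPKM (0.344 to 1.59) in High and 0.914 FPKM (0.253 to 1.58) in Low pigs. CYP2A, CYP2B and CYP2C genes belong to families of similar copies, so their values are uncertain. CYP1B1, which oxidises oestrogens and retinoids, was at 0.260 FPKM (0.0382 to 0.481) in High and 0.956 FPKM (0.219 to 1.69) in Low pigs, a Low-to-High ratio of 3.68, the largest among rows under 1 FPKM whose lower bounds were above 0 in both groups. It lies on an unplaced scaffold. CYP1A2 was at 0.172 against 0.206 FPKM in High and Low pigs. CYP1A1, the classical target of the aryl hydrocarbon receptor, was at 0.0111 FPKM (0 to 0.0316) in High and 0.0216 FPKM (0 to 0.0555) in Low pigs.

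CYP2E1, the ethanol-oxidising P450, was at 0.571 FPKM (0.141 to 1.0) in High and 0.343 FPKM (0.0442 to 0.642) in Low pigs, and CYP2D6 at 0.655 FPKM (0.233 to 1.08) in High and 0.437 FPKM (0.106 to 0.767) in Low pigs. CYP2C49 was at 0.298 FPKM (0.0523 to 0.543) in High and 0.101 FPKM (0 to 0.205) in Low pigs. These 3 had higher values in High pigs, as CYP2C33 did, but averaged under 1 FPKM and overlapped in their bounds. The span of CYP2E1 is shared with 5 other rows, among them SYCE1 (0.264 against 0.139 FPKM). CYP2F1 (0.245 against 0.267 FPKM) and CYP2W1 (0.00850 against 0.00523 FPKM) were below 1 FPKM as well, in High and Low pigs. The drug-oxidising CYP3A4 had no row by name, so its level is not known here.

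P450 enzymes of fatty acids, with the orphan CYP20A1, held 11 rows. CYP4F55, of the fatty acid omega-hydroxylase family, was at 12.7 FPKM (6.15 to 19.2) in High and 13.8 FPKM (4.77 to 22.9) in Low pigs, but its span is shared with 3 unnamed rows at 4.97 to 12.5 FPKM in High pigs and 5.19 to 17 FPKM in Low pigs. CYP20A1, whose substrate is not known, was at 11.6 FPKM (5.69 to 17.5) in High and 13.5 FPKM (6.03 to 21.0) in Low pigs. CYP2U1, a fatty acid hydroxylase, was at 6.19 FPKM (3.76 to 8.62) in High and 6.71 FPKM (3.71 to 9.71) in Low pigs. CYP4V2, a fatty acid hydroxylase linked to a human retinal dystrophy, was at 5.05 against 5.78 FPKM, and CYP2J34, of the arachidonic acid epoxygenase family, at 3.93 against 4.92 FPKM. All 5 were lower in High pigs, also after either scaling, with differences of -0.26 to -0.10 as deposited and overlapping bounds. The background share of lower rows was 67.7% as deposited, and 49.9% and 50.6% after scaling by the median ratio and by quantiles. CYP4X1, a brain P450, was at 1.07 FPKM (0.404 to 1.74) in High and 0.854 FPKM (0.245 to 1.46) in Low pigs, just under a mean of 1 FPKM. Its span is shared with CYP4A24 and with unnamed rows, among them 1 at 5.27 FPKM in High and 3.91 FPKM in Low pigs. CYP4A21, a bile acid hydroxylase of pig liver, CYP4A24, CYP4B1, CYP4F2 and CYP4F22 were between 0 and 0.226 FPKM in both groups.

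Sulfotransferases included the row with the highest mean of the set and rows listed at 0. SULT4A1, a brain sulfotransferase for which no substrate is firmly known, was at 57.6 FPKM (40.4 to 74.8) in High and 59.3 FPKM (38.4 to 80.1) in Low pigs, a difference of -0.04, and its bounds allowed a ratio of 0.504 to 1.95. SULT2B1, which sulfates cholesterol, was at 1.38 FPKM (0.510 to 2.24) in High and 1.23 FPKM (0.376 to 2.08) in Low pigs. SULT2A1, which sulfates the androgen precursor DHEA, was at 0.394 FPKM (0.0508 to 0.737) in High and 0.152 FPKM (0 to 0.318) in Low pigs. SULT1B1 was at 0.0221 against 0.0346 FPKM, while SULT1C2 and SULT1C3 were listed at 0 in High pigs and were at 0.00849 and 0.0119 FPKM in Low pigs. SULT1A1 had no row by name, so its level is not known here.

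POR, which passes electrons to all microsomal P450 enzymes, was at 12.4 FPKM (8.22 to 16.5) in High and 12.9 FPKM (7.81 to 18.0) in Low pigs, a difference of -0.05. Of 9 listed partners in electron transfer, 6 averaged 1 FPKM or more (CYB5A, CYB5B, CYB5R3, FDXR, FDX1L and NQO1). Of these, 0 reached a ratio of 1.5 in either direction (background 9.96%), with a median difference of -0.16. CYB5A, which aids CYP17A1, was at 43.5 against 57.4 FPKM, and the ferredoxin reductase FDXR at 2.96 against 2.94 FPKM. Of 9 heme genes with a mean of 1 FPKM or more, of 10 listed, 1 was lower by that ratio (background 6.71%) and 0 were higher (background 3.25%). The 1 was HMOX1, which degrades heme, at 3.60 against 5.78 FPKM. ALAS1, the first enzyme of heme synthesis, was at 14.8 against 16.7 FPKM.

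In the other lists of the pathway, 0 genes that averaged 1 FPKM or more passed a ratio of 1.5 (background 9.96%). With a mean of 1 FPKM or more there were 5 of 9 genes of cholesterol import (median -0.30), 5 of 10 steroid receptors (median -0.05, turning to 0.06 after scaling by the median ratio and to 0.05 after quantile normalization), 5 of 14 sensors of foreign compounds and oxysterols (median -0.25) and 6 of 11 genes of sulfate and glucuronide conjugation (median -0.15, or -0.05 and -0.06 after these scalings). The glucocorticoid receptor NR3C1 was at 11.7 against 12.2 FPKM in High and Low pigs, and the mineralocorticoid receptor NR3C2 at 1.79 against 1.88 FPKM. The aryl hydrocarbon receptor AHR was at 1.57 against 2.13 FPKM and the oxysterol receptor NR1H2 at 16.8 against 20.6 FPKM. Over the 47 of 78 listed genes with that mean, 0 were higher and 5 lower in High pigs by a ratio of 1.5, beside backgrounds of 3.25% and 6.71%.

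The 41 member rows below a mean of 1 FPKM held 21 higher and 19 lower in High pigs, with 1 listed at 0 in both. All 9670 rows below that mean held 2826 higher (29.2%) and 3188 lower (33%) in High pigs. The rest of the 9670 rows had equal values in both groups, so these shares are not directly comparable with the member counts. Bounds were apart for 0 of the 41 member rows (background 0.0207%), and for 20 the lower bound was 0 in both groups. Of 16 rows with the lower bound above 0 in both groups, 3 were higher in High pigs by a ratio of 1.5 (HSD17B13, CYP2E1 and HSD3B, background 9.82%) and 2 were lower (CYP1B1 and CYP26B1, background 16.4%). These backgrounds are over the 1762 rows of the table that met the same conditions.

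Position gave a further view that the choice by name did not use. Within 500 kb of another member on the same chromosome lay 28 rows, in 10 runs. On chromosome 2, CYP4F55 was at 12.7 FPKM in High pigs, while its neighbours CYP4F2 and CYP4F22 were at 0.226 and 0.00299 FPKM there, with bounds apart from those of CYP4F55 in both groups. On chromosome 8, HSD17B11 stood above HSD17B13 in the same way. The span of CYP4F55 is shared with unnamed rows, as given above, so its value is uncertain. The SULT1C run of chromosome 3 held SULT1C4 beside SULT1C2 and SULT1C3, which were near 0 in both groups.

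In the run on chromosome 6 that holds CYP2B22 (44702139 to 44978800), the group values gave CYP2B22 a difference of -1.02, CYP2A6 -0.04 and CYP2F1 -0.02. The bounds allowed a ratio of 0.117 to 1.22 for CYP2B22 and of 0.197 to 6.05 for this CYP2A6 row. CYP2F1 was at 0.245 FPKM in High and 0.267 FPKM in Low pigs, a level at which the log2(FPKM + 1) scale understates a change. Whether the 3 genes differ in this is therefore not resolved by the deposited bounds. On chromosome 14, CYP2C49 (0.298 against 0.101 FPKM) lies beside CYP2C42 (2.78 against 2.71 FPKM), and CYP2C33 lies farther along the same chromosome. The 5 AKR1C and AKR1E rows of chromosome 10 and the CYP1A pair of chromosome 7 were all under 1 FPKM. In all, 11 member rows lie on unplaced scaffolds, among them AKR1A1, HSD11B1, CYP27A1, CYP20A1 and POR, and 13 share a span with another row of the table.

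**Figure D5:**
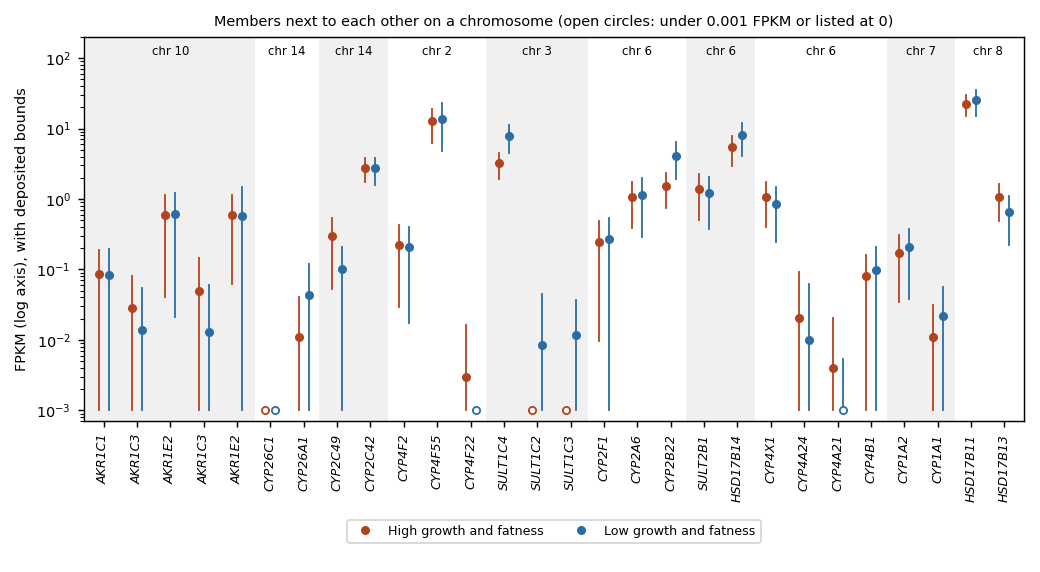
FPKM (y axis, log) of the 28 member rows within 500 kb of another member, in chromosome order within each of 10 runs (shaded alternately), with the High group left of the Low group and lines for the deposited bounds. Open circles lie under 0.001 FPKM or are listed at 0. SULT1C4, CYP4F55 and HSD17B11 stand above their neighbours in both groups, but CYP4F55 shares its span with unnamed rows that are not shown.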

How the data were processed

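Total RNA of the hypothalamus was sequenced from 10 pigs, 5 in each group, as paired-end libraries of an Illumina kit run 3 to a lane, per the labels' protocols. The submitters' processing notes name TopHat2 2.0.5, Bowtie2, Cufflinks 2.0.2 and the build Sscrofa10.2, with no word on their settings. The authors deposited 1 FPKM value for each gene row in each group, bracketed by a lower and an upper bound, per the file headers. How animals were combined, the confidence level of the bounds and the use of strand are not given in the sources used here, and reads of overlapping rows and similar copies may not be told apart.

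Of 89 rows matching the names, 2 CYP51A1 rows and 1 CYP27A1 row with the status FAIL in Low pigs were left out. Counts used rows that averaged 1 FPKM or more (45 members, 15281 in all), and the pseudocount was 1. With 1 value per group no p-value was computed. A row was called where bounds did not overlap or where the FPKM ratio was at least 1.5, and the functions were tested on simulated data. For lists, the row with the highest mean stood for a name. Coordinates are as in the file. Values were computed with Python 3.11.15 and pandas 2.3.3.

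Values with bounds were given for members past either call, the 3 highest of each role and 29 classical enzymes. Of these 29, 7 had no row by name and are not analysed here. They were HSD3B1, CYP11B1, CYP11B2, CYP19A1, AKR1C4, CYP3A4 and SULT1A1. The members and lists were chosen with earlier results of these data known, and the hypothalamic list was added after the file was seen. Alternatives were pseudocounts of 0.5 and 0.1, no filter, a minimum mean of 5 FPKM, a ratio of 2, median-of-ratios scaling, quantile normalization and 1 row per symbol on placed chromosomes. No sequence is printed.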

Additional observations from a re-analysis of the deposited data

How the results depend on the processing

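No paired analysis was possible because each group has a single deposited value per gene, and fits without single animals could not be run for the same reason. Scaling by the median ratio moved the median of all rows that averaged 1 FPKM or more to 0.00056, against -0.098 as deposited, and quantile normalization moved it to -0.0026. The count of members with bounds apart was 0 under every alternative run. The median difference of members, -0.12 as deposited, was -0.010 after median-of-ratios scaling. The 1 member past a ratio of 1.5 and higher in High pigs became 12 with no filter, 0 with a minimum mean of 5 FPKM and 0 at a ratio of 2, and the 3 that were lower became 15 with no filter and 1 with a minimum mean of 5 FPKM, since those settings test more rows, fewer rows or a larger ratio. List medians after median-of-ratios scaling were -0.19 for cholesterol import, -0.051 for electron donors, -0.071 for heme genes, 0.057 for steroid receptors and -0.14 for sensors, and after quantile normalization they were -0.14 for cholesterol import, -0.0070 for electron donors, -0.038 for heme genes and -0.13 for sensors. Of 55 alternative values for counts and medians, 40 stayed within the limits (1.5 times a count, 0.1 for a median). The 16 alternative values of SULT1C4, CYP2B22, CYP2C33 and CYP39A1 kept their direction. Quantile normalization of the ratio counts was added after the data were seen. The limits set by depth could not be assessed, as no counts were used.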

Other observations

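A few rows of related enzymes fell outside the choice by name. HSD11B1L, a relative of HSD11B1, was at 5.40 FPKM (2.93 to 7.87) in High and 3.79 FPKM (1.67 to 5.91) in Low pigs, a difference of 0.42. STARD3NL, a partner of STARD3 without the START domain, was at 55.3 FPKM (36.5 to 74.2) in High and 62.7 FPKM (37.9 to 87.5) in Low pigs. The row named CYP5A1V2, after the P450 that makes thromboxane, was at 2.45 FPKM (1.16 to 3.74) in High and 2.76 FPKM (1.26 to 4.27) in Low pigs. SULT6B1 was near 0, at 0.0220 FPKM (0 to 0.0784) in High and 0.0779 FPKM (0 to 0.199) in Low pigs. A reference table of gene identifiers named 2 further rows. The row of STARD6 was at 2.31 FPKM (0 to 5.09) in High and 2.36 FPKM (0 to 5.38) in Low pigs, and that of SULT1A3, on an unplaced scaffold, was at 1.73 FPKM (0.681 to 2.77) in High and 2.37 FPKM (0.871 to 3.86) in Low pigs. The CYP27A1 row left out for its status, FAIL in Low pigs, carried values of 7.08 FPKM (1.67 to 12.5) in High pigs and 9.79 FPKM (2.82 to 16.8) in Low pigs. None of the 6 rows with status OK in both groups had bounds apart, and 1, SULT6B1, passed a ratio of 1.5, at a level under 1 FPKM.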
